A study of Mus musculus with 10 samples.

Results

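A set of 10 genes for lymphoid transcription factors was followed through the transcriptomes of CD34- haematopoietic stem cells (HSCs) from mice with the floxed Regnase-1 gene, without or with a Cre recombinase: Ebf1, Pax5, Ikzf1, Ikzf2, Ikzf3, Tcf3, Foxo1, Spib, Bcl11a and Lef1. The members were taken by gene symbol, and all 10 were found among the 33393 genes of the files, with 67 of 95912 transcripts. Bone marrow cells of 8-week C57BL/6 mice had been sorted as lineage-negative, Sca-1-positive, cKit-positive, CD34-negative and Flt3-negative cells, and RNA was sequenced after low-input amplification. The 5 control libraries came from Reg1flox/flox mice and the 5 others from Vav1-iCre; Reg1flox/flox mice (labelled Reg1Δ/Δ here), in which the Vav1 promoter drives the Cre recombinase in blood cells, so both groups carry the floxed allele and the control lacks Cre. From the style of their names the libraries fall into 2 sets, set 1 with 3 per group and set 2 with 2 per group, and genotypes were compared within sets. The values of set 2 Reg1Δ/Δ replicate 2 carry the name of replicate 1 in their header but differ from it, and were assigned by the deposited sample record. The labels do not say whether each library is a single mouse, so p-values measure only the spread between these libraries.

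The gene that the floxed allele removes, Zc3h12a (Regnase-1), was not lower in the libraries labelled Reg1Δ/Δ. It was at 1.83, 1.28 and 1.60 TPM (a level per length of transcript, scaled to the same total in each library) in the set 1 controls and 3.54, 2.08 and 2.51 TPM in the set 1 Reg1Δ/Δ libraries, and at 1.48 and 6.07 against 10.3 and 8.52 TPM in set 2. The log2 fold change was 0.83 (SE 0.28, limma adjusted p = 0.0314), in the direction opposite to the deletion, with groups that did not overlap in either set. In set 1 alone it was 0.52 (limma adjusted p = 0.0527) and in set 2 alone 1.30 (limma adjusted p = 0.265), neither past the threshold. TPM is given per transcript without exons, so reads over the deleted part could not be separated from the rest. The directions below therefore rest on the library labels. TPM keeps no read depth, so the counting error of each value is unknown. Protein-coding transcripts held 46.2% to 49.1% of all TPM in set 1 and 73.5% to 81.1% in set 2, so levels were not compared between sets.

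B cells arise as E2A (encoded by Tcf3), Ikaros (Ikzf1) and Foxo1 open the lymphoid programme in early progenitors, Ebf1 starts the B-lineage programme and Pax5 then commits cells to it. Ikzf2 (Helios) and Ikzf3 (Aiolos) are zinc finger relatives of Ikaros, Spib is an Ets factor close to PU.1, Bcl11a is a zinc finger repressor needed for B cells, and Lef1 carries Wnt signals to DNA together with Tcf7. Long-term HSCs are known for low levels of the B-lineage factors and for Ikaros and E2A transcripts already present.

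Of the 10 members, 7 were lower in every Reg1Δ/Δ library than in every control of the same set (Ebf1, Pax5, Ikzf2, Ikzf3, Foxo1, Spib and Lef1), Ikzf1 was higher in every one, Tcf3 overlapped in both sets and Bcl11a in set 2. In the exact two-sided permutation test within sets, these 7 and Ikzf1 each gave p = 0.0167, the smallest that 120 assignments allow, Tcf3 gave p = 0.9 and Bcl11a p = 0.1. The filter of at least 1 TPM in at least 5 of 10 libraries was passed by 9 members and by 12874 genes in all. Of the 9 members, 6 were called lower and 1 higher (limma with the set as a covariate, Benjamini-Hochberg adjusted p under 0.05 over all genes tested). Among all genes tested 37.9% were called lower and 15.0% higher. Values did not overlap within either set, in the lower direction, for 31.4% of genes and in the higher direction for 12.7%. Ikzf3, Spib and Lef1 passed the filter only through the 5 controls, where they are high, so the count of calls over the members describes them and is no support for a direction. Pax5 reached 1 TPM in 4 libraries only, all of them controls, and missed the filter, so its test was the permutation. It would pass a looser filter only through the controls too, so its calls under such filters are no support. Fold changes are on the scale of log2(TPM + 1), which understates the change of low genes, and the median over all tested genes was -0.25. In bulk RNA, fewer cells of a type and less RNA per cell cannot be told apart.

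**Figure D1:**
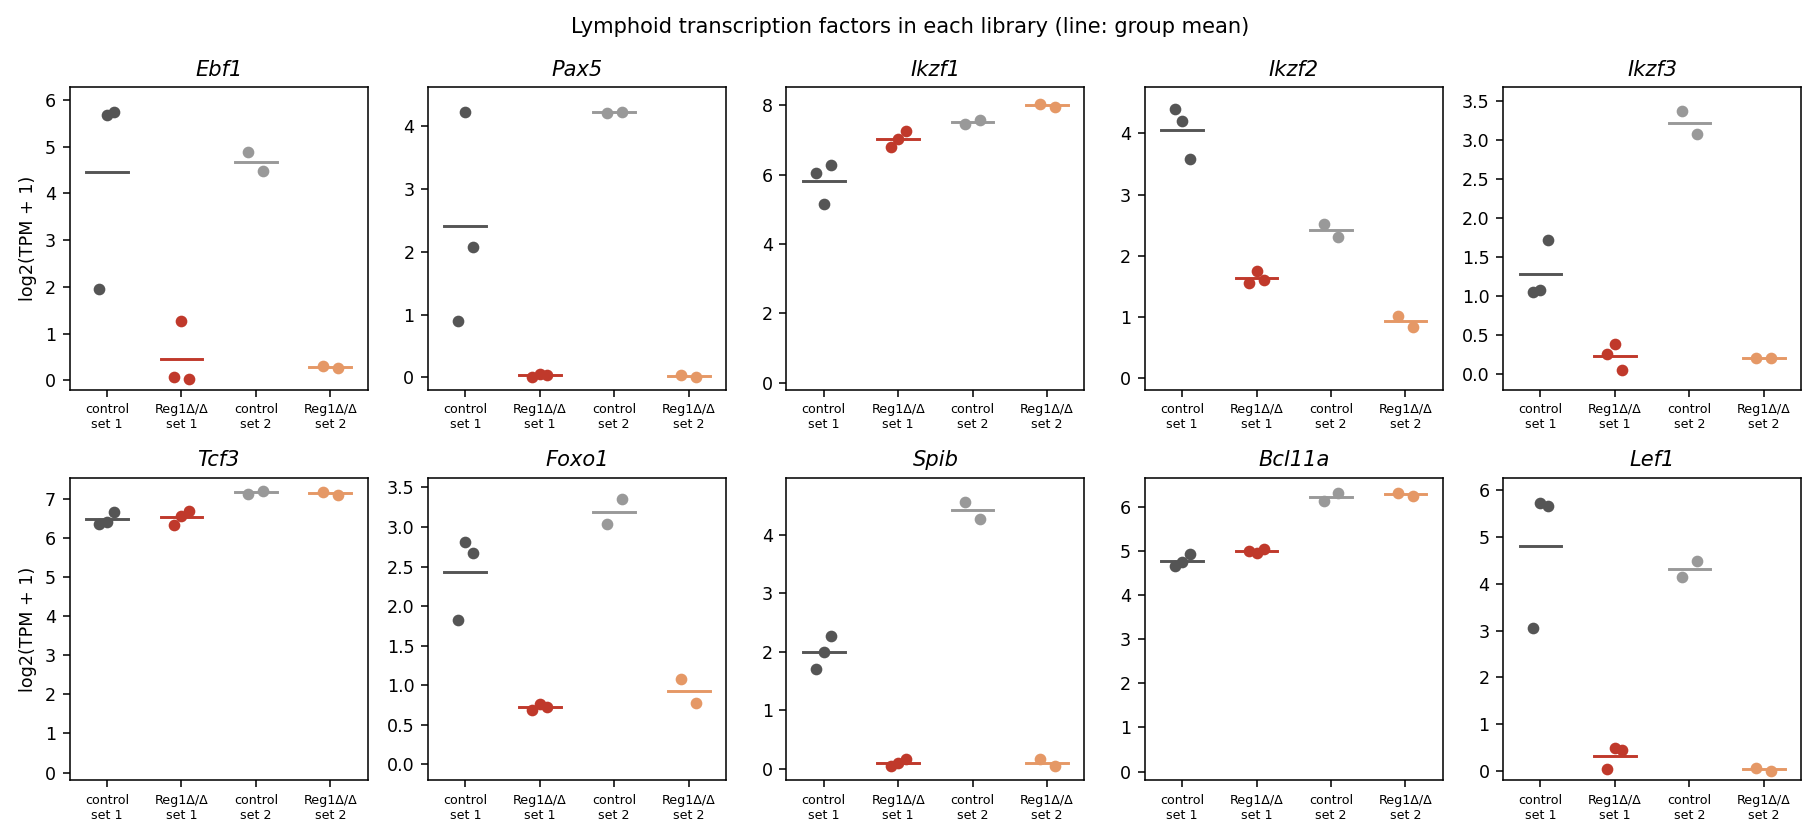
Level of each member in each library, as log2(TPM + 1); each point is a library, the horizontal line is the mean of its group, and each panel has its own scale. Ebf1, Pax5, Ikzf2, Ikzf3, Foxo1, Spib and Lef1 have all Reg1Δ/Δ points below the control points of the same set, Ikzf1 has them above, and Tcf3 overlaps in both sets.

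To show promoters of some of the members that fell, the 300 bases around the RefSeq start (250 before and 50 after, build GRCm38.p6, 5′ to 3′ on the gene's strand) are printed for Ebf1, Pax5, Foxo1 and Spib. Capitals mark matches, on either strand, to CCCNNGGG (letters bound by Ebf1), CANNTG (the E-box of E2A), TGGGAA (Ikaros), TGTTTAC (Foxo), CTTTGA (Tcf and Lef) or GGAAGT (Ets factors); overlapping matches are joined. Of 32851 promoter windows, 13.7% held the Ebf1 letters, 72.3% an E-box, 25.6% the Ikaros letters, 3.65% the Foxo letters, 16.0% the Tcf and Lef letters and 23.8% the Ets letters. Promoters were given for 8 of the 10 members, with 13 windows in all; Ikzf2 and Ikzf3 are named only.
Ebf1 (window chr11:44619978-44620277, plus strand): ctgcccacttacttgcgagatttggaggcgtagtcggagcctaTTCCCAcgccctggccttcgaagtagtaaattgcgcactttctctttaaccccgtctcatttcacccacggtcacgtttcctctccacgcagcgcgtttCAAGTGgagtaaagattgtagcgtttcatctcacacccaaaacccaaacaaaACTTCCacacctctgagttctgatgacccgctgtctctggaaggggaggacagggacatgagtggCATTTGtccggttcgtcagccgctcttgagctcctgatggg
Pax5 (window chr4:44710645-44710944, minus strand): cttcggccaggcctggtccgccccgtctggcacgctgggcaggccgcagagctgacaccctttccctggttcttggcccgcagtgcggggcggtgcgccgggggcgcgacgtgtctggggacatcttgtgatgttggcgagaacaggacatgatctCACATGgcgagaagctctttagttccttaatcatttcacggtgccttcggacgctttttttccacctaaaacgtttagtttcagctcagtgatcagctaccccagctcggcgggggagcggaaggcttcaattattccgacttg
Foxo1 (window chr3:52268087-52268386, plus strand): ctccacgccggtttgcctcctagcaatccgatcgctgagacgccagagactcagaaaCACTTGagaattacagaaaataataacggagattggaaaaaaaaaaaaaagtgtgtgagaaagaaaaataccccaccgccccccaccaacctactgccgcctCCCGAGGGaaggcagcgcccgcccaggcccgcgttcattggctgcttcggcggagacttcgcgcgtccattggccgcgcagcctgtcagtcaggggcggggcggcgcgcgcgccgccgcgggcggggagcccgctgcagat
Spib (window chr7:44532022-44532321, minus strand): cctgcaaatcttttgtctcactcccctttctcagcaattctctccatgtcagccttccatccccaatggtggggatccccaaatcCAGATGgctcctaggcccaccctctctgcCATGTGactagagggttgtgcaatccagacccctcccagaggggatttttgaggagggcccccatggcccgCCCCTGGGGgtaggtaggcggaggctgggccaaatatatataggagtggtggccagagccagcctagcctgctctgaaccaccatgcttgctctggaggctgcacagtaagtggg
Ebf1 has another window (chr11:44617850-44618149, not printed), which held 1 Tcf and Lef match and none of the other letters. The printed Ebf1 window held 2 E-boxes, 1 Ikaros match and 1 Ets match. The Pax5 window held 1 E-box and none of the other letters. The Foxo1 window held 1 E-box and 1 Ebf1 match, and the Spib window held 2 E-boxes and 2 overlapping Ebf1 matches. Lef1 has 4 windows, not printed, of which each held an E-box, 3 held an Ikaros match and 1 held 2 Tcf and Lef matches and an Ets match. These matches are descriptions of the letters and not sites.

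Among the factors that start and commit the B lineage, Pax5 was near 0 in every Reg1Δ/Δ library, and Ebf1 in all but replicate 2 of set 1. Fewer genes of any kind reached 1 TPM in the Reg1Δ/Δ libraries. The numbers were 12006 to 12048 against 14276 to 14307 in set 1, and 11256 and 11398 against 13366 and 13717 in set 2. The part of this in the members' differences was not tested. Ebf1 (ENSMUSG00000057098.14, chr11:44617317-45008091, plus strand, GRCm38) was at 2.86, 50.2 and 52.6 TPM in the set 1 controls and 28.4 and 21.5 TPM in the set 2 controls. It was at 0.0464, 1.42 and 0.0146 TPM in the set 1 Reg1Δ/Δ libraries and 0.241 and 0.210 TPM in those of set 2. Control replicate 1 of set 1 was the lowest control, and still above every Reg1Δ/Δ library. The means were 35.2 ± 28.1 (SD, n = 3) and 0.494 ± 0.804 TPM in set 1, and 24.9 ± 4.90 (SD, n = 2) and 0.225 ± 0.0217 TPM in set 2. The log2 fold change was -4.16 (SE 0.67, limma adjusted p = 0.000625), and without control replicate 1 of set 1 it was -4.86. Pax5 (ENSMUSG00000014030.15, chr4:44524757-44710487, minus strand) was at 0.871, 17.8 and 3.22 TPM in set 1 and 17.5 and 17.8 TPM in set 2 controls. No Reg1Δ/Δ library exceeded 0.0312 TPM, and 2 of the 5 listed it at 0. The mean difference of log2(TPM + 1) was -3.29 (exact permutation test within sets, p = 0.0167).

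The 3 Ikaros family members did not move together. Ikzf2 (Helios; ENSMUSG00000025997.13, chr1:69531214-69687245, minus strand) was at 20.1, 17.5 and 11.0 TPM in set 1 controls against 1.93, 2.34 and 2.02 TPM, and at 4.75 and 3.92 against 1.02 and 0.781 TPM in set 2. Control replicate 1 of set 1, the lowest control for Ebf1, was the highest here. The log2 fold change was -2.05 (SE 0.22, limma adjusted p = 4.16e-05). Ikzf3 (Aiolos; ENSMUSG00000018168.8, chr11:98464902-98546031, minus strand) was at 1.07, 1.11 and 2.29 TPM in set 1 controls and 9.35 and 7.46 TPM in set 2 controls. No Reg1Δ/Δ library exceeded 0.306 TPM, and the log2 fold change was -1.84 (SE 0.35, limma adjusted p = 0.0016). Ikzf1 (Ikaros; ENSMUSG00000018654.17, chr11:11685003-11772926, plus strand) went the other way, with 64.5, 34.4 and 75.8 TPM in set 1 controls against 110, 128 and 152 TPM, and 174 and 187 against 263 and 247 TPM in set 2. Its log2 fold change was 0.92 (SE 0.23, limma adjusted p = 0.00771).

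As the deposited TPM was split between transcripts, the difference of Ikzf1 lay in 1 short transcript in set 1. In set 2 it lay in that transcript and others. Of the 67 member transcripts, 49 reached 1 TPM in some library and 22 passed the filter, of which 4 were called lower and 2 higher, where among all 31937 transcripts tested 14.9% were called lower and 6.40% higher. Ikzf1-206, of 242 bases and 3 exons (chr11:11685003-11707800), starts 922 bases before Ikzf1-203 and ends within exon 3. It was at 41.7, 17.5 and 42.9 TPM in set 1 controls against 91.4, 112 and 126 TPM, and at 48.6 and 30.1 against 88.2 and 68.8 TPM in set 2. The groups did not overlap in either set, and the log2 fold change was 1.45 (SE 0.29, limma adjusted p = 0.00727). It held 51.0% to 64.7% of Ikzf1 TPM in set 1 controls and 82.7% to 87.0% in the Reg1Δ/Δ libraries, and 16.0% to 27.9% against 27.9% to 33.6% in set 2. The longest transcripts, Ikzf1-203 and Ikzf1-204, which carry most of the coding exons, had log2 fold changes of 0.07 (95% interval -0.39 to 0.53) and 0.10 (-0.31 to 0.51). In set 2 alone Ikzf1-204 was at 46.1 and 45.3 TPM in controls against 64.9 and 55.7 TPM. The 446-base Ikzf1-205 was at 28.5 and 31.7 against 42.0 and 57.4 TPM there, and neither transcript overlapped. With 2 libraries per group this separation alone shows little. Over both sets neither was called (limma adjusted p = 0.73 for Ikzf1-204 and 0.507 for Ikzf1-205). Ikzf1-202, of 911 bases, fell by 1.32 (limma adjusted p = 0.0139), but overlapped in set 2, at 1.18 and 4.35 TPM in controls against 1.42 and 0 TPM. With transcripts under 500 bases left out and the rest rescaled, an alternative chosen after the short transcript was seen, Ikzf1 had a log2 fold change of -0.14 (limma adjusted p = 0.515). Among all 1444 tested transcripts under 300 bases, 1.32% were called higher and 6.16% lower.

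The first exon of Ikzf1-206, 172 bases long, is not part of Ikzf1-203 or Ikzf1-204, while its exons 2 and 3, 54 and 16 bases, lie within theirs. All exons of Ikzf1-206 lie within exons of Ikzf1-205, whose first exon has the same start. How reads were split between Ikzf1-206 and Ikzf1-205 was not tested. The 56 coding bases of Ikzf1-206 are printed because they are found in Ikzf1-203 and Ikzf1-204 too, so that a read over them alone does not tell these transcripts apart. Lower case marks the 40 bases of exon 2 (chr11:11700219-11700258) and capitals the 16 bases of exon 3 (chr11:11707785-11707800).
Ikzf1-206 coding part: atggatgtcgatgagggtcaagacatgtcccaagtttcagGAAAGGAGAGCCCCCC

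**Figure D2:**
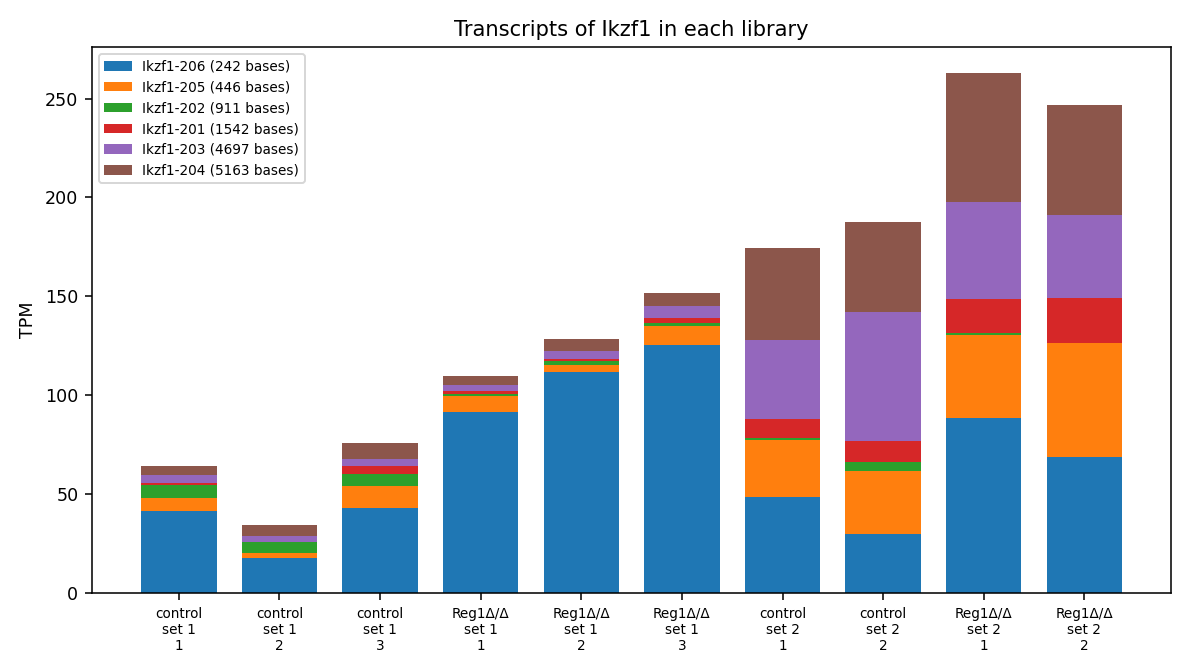
TPM of each annotated Ikzf1 transcript in each library, stacked to the gene's total (y axis, from 0), with the libraries grouped by set and genotype. Ikzf1-206 takes 82.7% to 87.0% of the total in set 1 Reg1Δ/Δ libraries and less in every control of that set, and in set 2 Ikzf1-204 and Ikzf1-205 are taller in the Reg1Δ/Δ libraries as well.

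**Figure D3:**
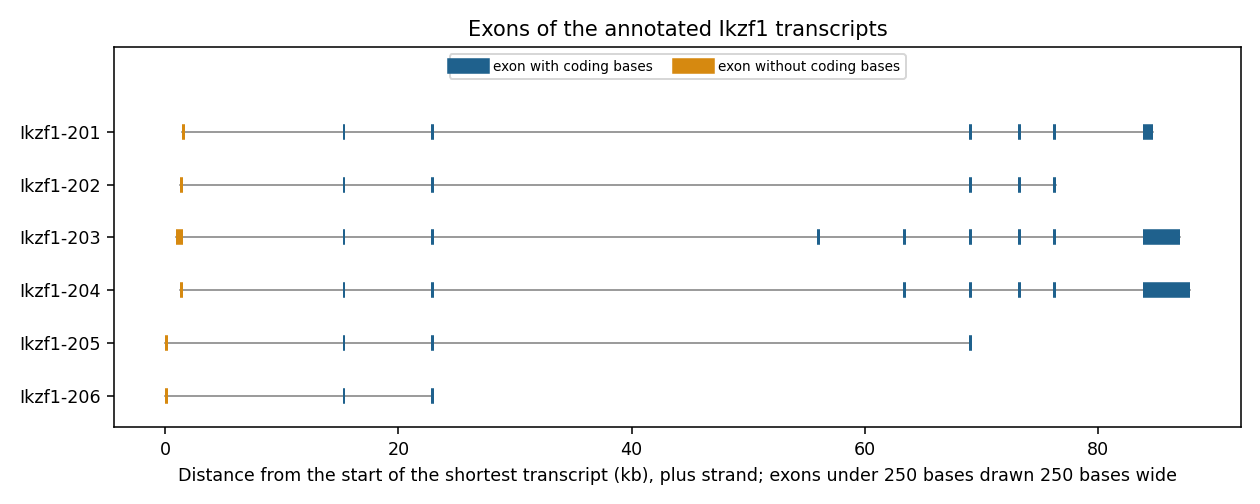
Exons of the 6 annotated Ikzf1 transcripts against the distance in kb from the start of Ikzf1-206, the shortest of them; blue boxes hold coding bases, orange boxes do not, and exons under 250 bases are drawn 250 bases wide. Ikzf1-206 has 3 exons and lacks every later exon of Ikzf1-203 and Ikzf1-204.

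Tcf3 and Bcl11a did not pass the test in either direction. Tcf3 (E2A, the E protein that acts with Ebf1 early in the B lineage; ENSMUSG00000020167.14, chr10:80409514-80433647, minus strand) was at 81.8, 84.3 and 102 TPM in set 1 controls against 80.4, 94.4 and 103 TPM, and at 140 and 148 against 144 and 138 TPM in set 2. The log2 fold change was 0.02 (95% interval -0.22 to 0.26, limma adjusted p = 0.882). Tcf3-213, a 430-base transcript, had a log2 fold change of 1.51 (limma adjusted p = 0.0115), and took at most 10.3% of the gene's TPM in any library. Its groups overlapped in set 2, at 2.30 and 8.52 TPM in controls against 14.0 and 6.97 TPM. Bcl11a (ENSMUSG00000000861.15, chr11:24078056-24174123, plus strand) was at 24.5, 26.0 and 29.5 TPM in set 1 controls against 31.2, 29.9 and 32.0 TPM, and at 69.5 and 79.2 against 79.1 and 75.2 TPM in set 2. The set 1 Reg1Δ/Δ libraries were all slightly above the set 1 controls, and the groups overlapped in set 2. The log2 fold change was 0.15 (95% interval -0.06 to 0.37, limma adjusted p = 0.213). Changes within these intervals were not detectable here. Under median-of-ratios scaling, which moved the median of all genes from -0.25 to 0.05, Tcf3 was at 0.37 (limma adjusted p = 0.0125) and Bcl11a at 0.49 (limma adjusted p = 0.00194).

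Foxo1, Spib and Lef1 fell. Foxo1 (a factor that PI3K signalling keeps out of the nucleus and that induces Il7r and the Rag genes; ENSMUSG00000044167.6, chr3:52268336-52353221, plus strand), with a single annotated transcript, was at 2.55, 6.00 and 5.35 TPM in set 1 controls and 7.21 and 9.18 TPM in set 2. The Reg1Δ/Δ libraries lay between 0.617 and 1.12 TPM, and the log2 fold change was -1.93 (SE 0.20, limma adjusted p = 4.46e-05). Spib (ENSMUSG00000008193.13, chr7:44525993-44532071, minus strand) was at 2.27, 2.98 and 3.81 TPM in set 1 controls and 22.5 and 18.4 TPM in set 2. It did not exceed 0.124 TPM in a Reg1Δ/Δ library (log2 fold change -2.86, SE 0.40, limma adjusted p = 0.000271). Lef1 (ENSMUSG00000027985.14, chr3:131110471-131224356, plus strand) was at 7.33, 52.4 and 49.6 TPM in set 1 controls and 16.7 and 21.3 TPM in set 2. It did not exceed 0.413 TPM in a Reg1Δ/Δ library (log2 fold change -4.41, SE 0.46, limma adjusted p = 3.93e-05), and the same set 1 control that was lowest for Ebf1 was lowest for Lef1.

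In set 1 much of the level of some members came from short transcripts, while Ikzf3, Foxo1, Spib and Bcl11a have no annotated transcript under 500 bases. Such transcripts held 64.4% to 71.9% of Lef1 TPM, 50.5% to 75.5% of Ebf1 TPM, 62.1% to 92.9% of Pax5 TPM and 41.2% to 53.4% of Ikzf2 TPM in the set 1 controls. In the set 2 controls they held 0% of Lef1 and Ikzf2 TPM, 0% to 21.4% of Ebf1 TPM and 0% to 11.6% of Pax5 TPM. For Ikzf1 they held 58.9% to 74.7% in the set 1 controls and 32.9% to 44.3% in those of set 2. The 345-base retained intron Lef1-208 was at 5.27, 36.6 and 32.0 TPM in set 1 controls and at 0 in both set 2 controls. Leaving out transcripts under 500 bases kept all 6 calls, which for Ikzf3, Spib and Lef1 are again descriptions, as the controls alone carried them past the filter. Antisense or overlapping genes share exon bases with Pax5, Ikzf2, Foxo1, Bcl11a and Lef1, and the highest of them reached 3.88 TPM in any library, so reads of such a pair may not have been told apart.

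**Figure D4:**
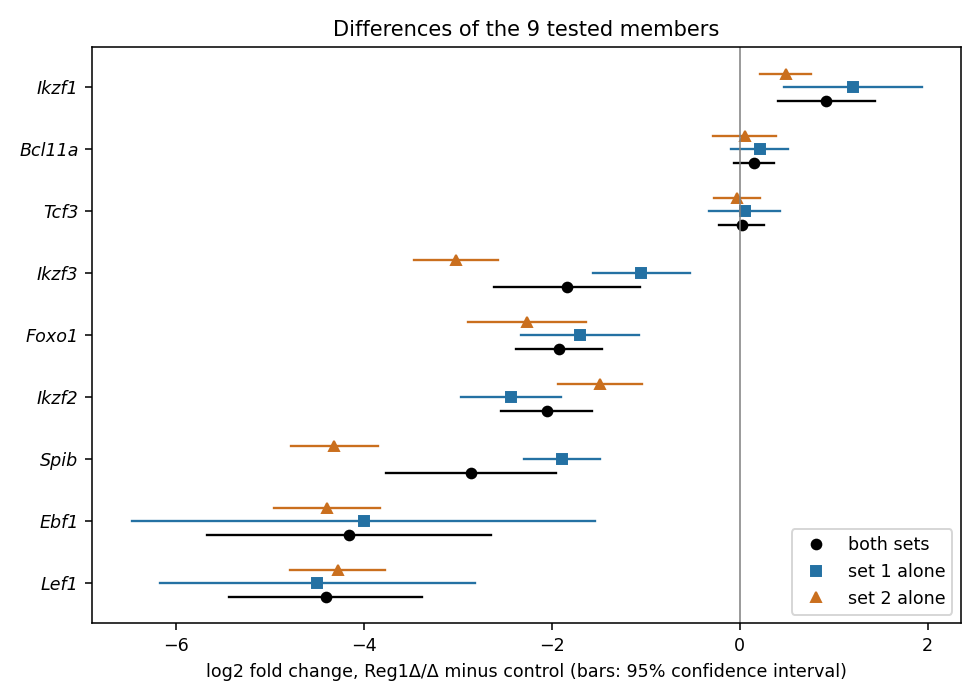
Log2 fold change on the log2(TPM + 1) scale of the 9 tested members, with 95% confidence intervals, for both sets together and each set alone; values left of 0 are lower in the libraries labelled Reg1Δ/Δ. The intervals of Lef1, Ebf1, Spib, Ikzf2, Foxo1 and Ikzf3 stay left of 0 in each set, and those of Tcf3 and Bcl11a cross 0.

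Each set alone gave the same 6 members as lower, which is a description where a member passed the filter only through the controls. In set 1 alone Ikzf1 was also called higher (1.21, limma adjusted p = 0.0168), with 38.3% of genes lower and 12.0% higher in that set. In set 2 alone Ikzf1 was at 0.49 (limma adjusted p = 0.0587), with 12.3% of genes lower and 3.51% higher. The term for a different effect in the sets was past the threshold for Spib and Ikzf3, and for 0.443% of all genes. Spib was at -1.89 in set 1 and -4.31 in set 2 (difference -2.43, SE 0.26, limma adjusted p = 0.011), and Ikzf3 was at -1.05 and -3.02 (difference -1.97, SE 0.32, limma adjusted p = 0.0476). Both were near 0 in every Reg1Δ/Δ library of either set, so each fold change is capped by the level of that set's controls and the term is not read as a difference in response.

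In the order of levels within the set 1 controls, per length, Tcf3 stood first and Ikzf1 second, with overlapping spread between Ikzf1, Lef1 and Ebf1, and Ikzf3 was last at 1.49 ± 0.693 TPM (SD, n = 3). In set 2 Ikzf1 was first and Tcf3 second, followed by Bcl11a at 74.3 ± 6.86 TPM (SD, n = 2), and Ikzf2 last. Ikzf1, Tcf3 and Bcl11a were the only members above 2.34 TPM in any Reg1Δ/Δ library.

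Genes close to these factors were counted from lists, which share 18 genes between them. Some tested genes stayed under 1 TPM in every Reg1Δ/Δ library and so passed the filter through the controls alone, 3 of 9 members, 3 of 11 relatives, 2 of 3 inhibitors of E proteins, 6 of 20 other lymphoid factors, 3 of 11 B-lineage targets, 3 of 16 Foxo1 targets, 1 of 6 lymphoid progenitor genes, 1 of 7 stem cell markers and 2 of 7 B cell markers, so the counts describe the lists and support no direction. Of 11 tested relatives of the members, 9 were lower and none higher, with a median of -1.68 (all genes -0.25). In set 2 alone 5 were lower, where 12.3% of all genes were, and under quantile normalization 7 were lower. Tcf7, the partner of Lef1, had the largest drop (-4.16, limma adjusted p = 2.91e-06), followed by Spi1, which encodes PU.1 (-2.54), and Spic (-2.17). The E proteins Tcf4 and Tcf12, partners of E2A, fell by 1.26 and 0.47, while Ikzf5 (0.22) and Foxo3 (-0.30) did not pass the test. All 3 tested inhibitors of E proteins were lower, Id3 at -3.72, Id2 at -3.56 and Id1 at -1.48 (2 of 3 under quantile normalization). Of 20 tested other lymphoid factors 17 were lower, with Pou2af1 (-4.60), Ets1 (-3.75), Tox (-3.36) and Satb1 (-2.98) the most, and none was higher. Under median-of-ratios and quantile scaling 1 relative and 1 other factor were called higher, where 3973 and 3861 of the 12874 genes tested were, against 1933 on the TPM scale as deposited.

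All 11 tested B-lineage targets of Ebf1, Pax5 and E2A were lower, of 13 listed, with a median of -5.13. Igll1, a surrogate light chain gene, was at 36.5 to 330 TPM in controls and 0 to 5.36 TPM in the libraries labelled Reg1Δ/Δ, and Vpreb1, its partner chain, at 24.7 to 298 and 0 to 4.40 TPM. Cd79a, a B cell receptor signalling chain (-6.12), and Vpreb3 (-6.00) fell by similar amounts. Control replicate 1 of set 1 was the lowest control in the summed level of these 13 genes, 197 TPM against 1125 to 1359 TPM in the other 4 controls, and the Reg1Δ/Δ libraries held 4.95 to 22.3 TPM. The lymphoid progenitor genes were lower in 6 of 6 tested (Dntt, the terminal transferase, -6.10; Ly6d, -4.38). Genes that Pax5 is known to repress were lower in 7 of 8 tested, with Ccl3 (-3.20), Flt3 (-2.85) and Notch1 (-2.62) leading, and none was called higher. In set 2 alone 5 were lower and 1 higher, and without Reg1Δ/Δ replicate 2 of set 1 the count was 7 lower and 1 higher.

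Among targets of Foxo1, 15 of 16 tested were lower and 1 was higher, with 11 lower under quantile normalization and 12 without the set covariate. Rag2 (-3.89), Il7r (-3.75) and Ccng2 (-2.88) were among those that fell, and Irs2, an adaptor of insulin signalling, was called higher (0.63, limma adjusted p = 0.0271), with groups that overlapped. Irs2 lost this call with no filter, with no set covariate, in each set alone, at a threshold of 0.001, and without control replicate 1 or 3 of set 1, control replicate 1 of set 2, Reg1Δ/Δ replicate 2 or 3 of set 1, or Reg1Δ/Δ replicate 1 of set 2. The Wnt targets of Lef1 and Tcf7 were lower in 1 of 6 tested, which is Tcf7 itself, and higher in 1, Myc (0.47, limma adjusted p = 0.0124), with a median of 0.08. No Wnt target was called higher in either set alone, while 2 were with median-of-ratios scaling and 4 with quantile normalization. As these scalings called 3973 and 3861 of all 12874 genes higher, nothing is read from these counts about the Wnt targets.

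**Figure D5:**
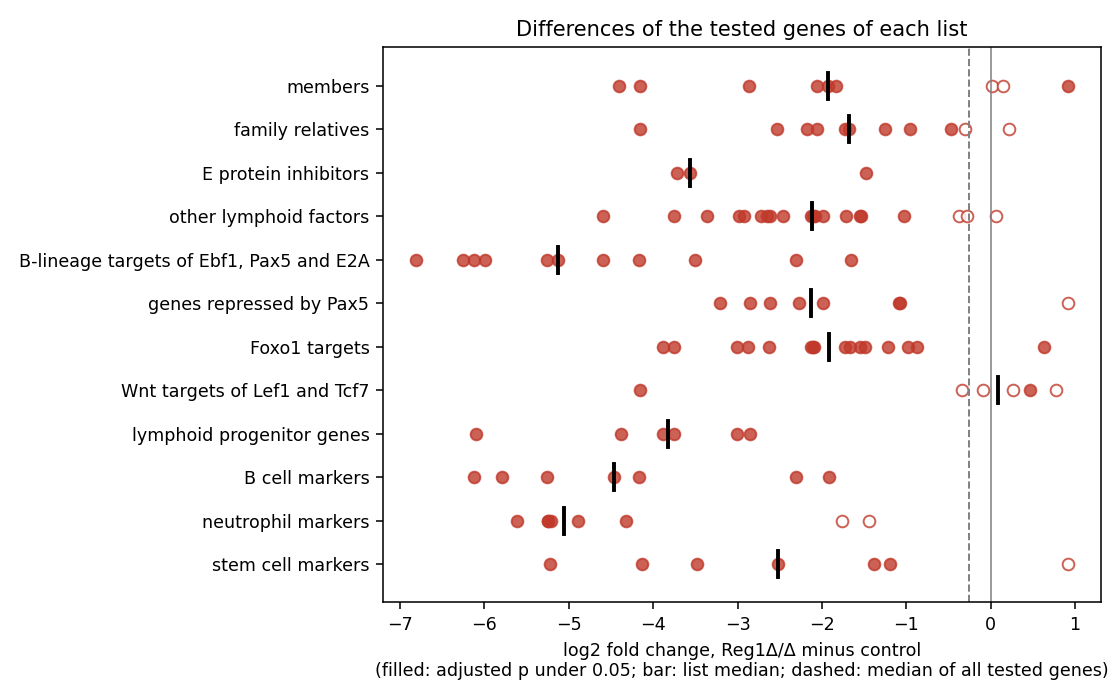
Log2 fold change of every tested gene in 12 lists, on the log2(TPM + 1) scale; filled points have an adjusted p under 0.05, the bar is the list's median and the dashed line the median of all tested genes. The B-lineage targets lie between -6.81 and -1.65, and the Wnt targets spread on both sides of 0 apart from Tcf7.

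Markers of other cells moved with these results, where 37.9% of all genes tested were lower and 15.0% higher, so that the counts of the smaller lists show little by themselves. All 7 tested B cell markers were lower, with a summed level of 607 to 2296 TPM in controls and 6.33 to 205 TPM in Reg1Δ/Δ libraries. T cell markers were lower in 4 of 4 tested, neutrophil markers in 6 of 8 and monocyte markers in 5 of 5. The monocyte count was 4 of 5 in most alternatives, among them each set alone, no set covariate, median-of-ratios scaling and without any single control. Summed neutrophil levels were 2839 to 13429 TPM in controls and 274 to 872 TPM in Reg1Δ/Δ libraries. Of 7 tested stem cell markers, 6 were lower too and 1 was not called. Among those lower were Hlf (-5.22), Procr (-4.13), Mecom (-3.48) and Fgd5 (-2.52). The summed level of the 8 listed was 614 to 718 TPM in set 1 controls against 555, 175 and 488 TPM in Reg1Δ/Δ replicates 1, 2 and 3. In set 2 alone 4 stem cell markers were lower and 1 higher, and without Reg1Δ/Δ replicate 2 of set 1 the count was 6 lower and 1 higher. Cd34, which the sort was to be negative for, was at 51.9 to 236 TPM in controls and 9.54 to 19.8 TPM in Reg1Δ/Δ libraries. Of the other lists, the NK cell markers were lower in 1 of 1 tested, the plasmacytoid dendritic cell markers in 2 of 3 with 1 higher, the erythroid markers in 3 of 5 with 1 higher, and the megakaryocyte markers in 3 of 4 with 1 higher. The NK cell call was lost with no set covariate and in set 2 alone, and 1 of 5 erythroid markers was lower in set 2 alone. The higher call among plasmacytoid dendritic cell markers was lost with no set covariate, in set 2 alone and at a threshold of 0.001. The higher megakaryocyte call was lost with no filter, with no set covariate, in each set alone, at a threshold of 0.001 and without control replicate 3 of set 1, control replicate 2 of set 2, any single Reg1Δ/Δ library of set 1 or Reg1Δ/Δ replicate 1 of set 2, and 1 of 4 was lower with no set covariate and in set 2 alone. None of these markers was listed at 0 in every Reg1Δ/Δ library. The part of these markers in the members' differences was not tested.

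Across the 10 libraries, after the mean of each set was taken off, Pearson's r described the genes most like each tested member, out of 8906 protein-coding genes and from the closest 3. Ebf1 varied most like Vpreb2, Frg1 and Slamf6 (r = 0.992, 0.986 and 0.985). Foxo1 was followed by Pou2af1, Mzb1 and Vpreb3 (0.996, 0.995 and 0.993), and Lef1 by Impdh1 and Id3 (0.992 and 0.991). Ikzf3 was closest to Spib, Lbh and Rsrp1 (0.987, 0.978 and 0.975), and Spib to Cpne8, Dgka and Plekho1 (0.987, 0.987 and 0.985). Ikzf2 was close to Trim35 and Slc9a3r1 (0.996 and 0.993), and Ikzf1 to Stom, Abcg4 and Stx2 (0.989, 0.984 and 0.983). For the members without a call, close genes were Ube2j1 and Kif4 for Tcf3 (0.877 and 0.867) and Rec8, Mrpl3 and Ggnbp2 for Bcl11a (0.922, 0.922 and 0.919). All these values share the libraries and the genotype difference, and are descriptions.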

How the data were processed

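RNA of sorted CD34- HSCs was measured in 10 libraries. Per the labels and the methods of the study, libraries were made with a low-input SMART kit and Nextera XT and read as paired ends, and the labels' processing notes name Salmon 0.9.1 and mm10. The authors deposited log2(TPM + 1) per transcript (95912 transcripts). TPM was recovered from the deposited log2 values and summed per gene id; 98.06% of transcript IDs, with version, are in GENCODE M21 on GRCm38, which gave positions and exons. The 12874 genes that reached 1 TPM in 5 or more libraries entered a limma fit (version 3.58.1, R 4.3.3) of log2(TPM + 1) (pseudocount 1) with the set as a covariate and Benjamini-Hochberg adjustment, threshold 0.05; the script was tested on simulated data. Each member was also tested by an exact permutation of genotype within sets. The members, lists and tests were chosen with earlier results of these data known. The text names all members, up to 4 genes per list with the largest change among those called, relatives of the members, and the 3 genes closest to each tested member; a few genes that this rule picks are not reported here. Alternatives covered the filter, pseudocount, scaling, covariate, single sets, a replicate block, left-out libraries and threshold; leaving out transcripts under 500 bases and asking for 3 libraries were chosen after seeing the data.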

Additional observations from a re-analysis of the deposited data

Results flagged for a closer look

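The test of a different fold change in the sets (the interaction of set and genotype) passed the threshold for 2 members. For Spib the log2 fold change in set 2 minus that in set 1 was -2.43 (limma interaction adjusted p = 0.011), and for Ikzf3 it was -1.97 (limma interaction adjusted p = 0.0476). Each was lower in all Reg1Δ/Δ libraries than in the controls of the same set. Spib did not exceed 0.124 TPM and Ikzf3 did not exceed 0.306 TPM in any Reg1Δ/Δ library, so on the log2(TPM + 1) scale each fold change is capped by the level of the controls of its set, and levels are not comparable between sets. The values are therefore not read as a different response to genotype.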

How the results depend on the processing

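Ebf1, Ikzf2, Foxo1, Spib and Lef1 kept their direction and their call under each of the alternatives run, and Ikzf3 did except at a threshold of 0.001 (adjusted p = 0.0016). Ikzf3, Spib and Lef1 passed the main filter only through the controls. Ebf1 and Foxo1 reached 1 TPM in 6 libraries, with all controls among them. Kept calls of these members are therefore descriptions and no support for a direction. The number of members called lower, 6, was 7 where Pax5 was tested too and 5 at a threshold of 0.001. Pax5 kept its direction, between -6.16 (pseudocount 0.1) and -2.83 (without control_set1 replicate 2), and its exact permutation p stayed between 0.0167 and 0.0333. The number of members called higher, 1, became 3 with median-of-ratios scaling and 0 without the set covariate, in set 2 alone, at a threshold of 0.001 and without transcripts under 500 bases. Ikzf1 reversed to -0.14 in the last of these; without the set covariate its limma adjusted p was 0.198. Tcf3, not called, changed sign with quantile normalization (-0.0128), in set 2 alone (-0.0258), without transcripts under 500 bases (-0.0707) and in 3 of the leave-one-out fits, whose values ran from -0.0273 to 0.0708 (-0.0152 without control_set1 replicate 1, -0.00332 without control_set1 replicate 2, -0.0273 without Reg1KO_set1 replicate 3). Over all tested genes, 4880 were lower and 1933 higher; quantile normalization gave 2636 and 3861, median-of-ratios scaling 3973 higher, no set covariate 3052 and 716, set 2 alone 1581 and 452, and the threshold of 0.001 2496 and 435. Same-numbered libraries did not deviate together (correlations of 0.033, 0.175 and 0.068 in set 1 and -0.054 in set 2), so the numbers were not used as pairs; with a replicate block 4545 genes were lower and 1703 higher, and 6 and 1 members. The cause of these shifts was not tested. TPM carries no depth, so counting error near 0 is unknown.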
